A study of Mus musculus with 6 samples.

Results

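The interleukin 1 receptor family was described here through 7 of its genes, Il1rl1, Il1rl2, Il1r1, Il1r2, Il1rap, Il18r1 and Il18rap, taken by symbol from the 37620 genes of the deposited tables. The family was chosen by the normalized counts of Il1rl1 and Il1rl2, which stood higher with dexamethasone (Dex) than without it, so values of Dex against untreated cells are given for its members as a description, with no test. All 7 genes passed the filter on low counts that left 14125 genes for testing. RNA was sequenced from BFU-E, the burst-forming progenitors that stand early in red cell formation, sorted from E14.5 fetal livers of 129/SvImJ mice. The sort removed cells with lineage markers, Sca-1, CD16/32, CD41 or CD34, and kept c-kit positive cells among the 10% lowest in CD71. The 3 groups, with 2 libraries each, were cells with 100 nM Dex and 10 µM GW7647, cells with 100 nM Dex, and untreated cells. Dex activates the glucocorticoid receptor, and GW7647 activates PPARα, a nuclear receptor of lipid metabolism. Cells of all groups were cultured in serum-free medium with erythropoietin at 2 U/mL, IGF-1 at 40 ng/mL and SCF at 100 ng/mL. The labels give 12 h of treatment, column headers of 1 deposited table carry 36 h, and no time is given for untreated cells. No group had GW7647 alone, and nothing in the labels says whether the libraries of a group came from separate cultures, so p-values measure the spread between these libraries, which may be technical.

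Receptors of this family carry immunoglobulin-like domains outside the cell and, in the signalling chains, a TIR domain inside it. A ligand first binds its own chain, which then recruits an accessory chain. The TIR domains together draw in MyD88 and the IRAK kinases, which lead through TRAF6 to NF-κB and MAP kinases. IL1RL1, also called ST2, binds interleukin 33 and is best known from mast cells, basophils and type 2 lymphoid cells. IL1RL2 binds interleukin 36, and IL1R1 binds interleukin 1α and 1β. IL1R2 binds interleukin 1 without a signalling domain and acts as a decoy. IL1RAP is the accessory chain shared by the receptors of interleukins 1, 33 and 36, while IL18R1 and IL18RAP are the binding and the accessory chain of the interleukin 18 receptor.

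The ligand-binding chains of interleukins 33, 36 and 1 were lower with Dex plus GW7647 than with Dex alone and higher than in untreated cells, while their shared accessory chain Il1rap was not called in either comparison. With Dex plus GW7647 against Dex, 5 of the 7 members fell, 0 rose and 2 were not called, in a comparison where 9.73% of all tested genes were called, 7.58% lower and 2.15% higher (edgeR quasi-likelihood test, Benjamini-Hochberg adjusted p under 0.05). Without replicate 1 or without replicate 2 of Dex plus GW7647, 3 members fell. The median log2 difference was -0.75 over the members and 0.00 over all tested genes. With Dex plus GW7647 against untreated cells, 4 members rose, 1 fell and 2 were not called, where 49.7% of all tested genes were called, 24.7% higher and 25.1% lower, shares that make a call common there. Higher calls among the members were 3 whichever library was left out and under DESeq2, and 6 under total count scaling. The median log2 difference was 0.91 over the members and 0.02 over all tested genes. Both comparisons share libraries with the choice of the family, Dex libraries in the one and untreated libraries in the other, so neither is independent of it.

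Library totals ran from 35970286 to 54174801 counts. Mitochondrial genes took 1.73% of counts in replicate 1 of Dex and between 2.46% and 2.88% in the other 5 libraries. Fkbp5, a co-chaperone and known target of the glucocorticoid receptor, was 3.13-fold higher with Dex plus GW7647 and 3.06-fold higher with Dex than in untreated cells (adjusted p = 7.73e-09 and 6.36e-09, edgeR). Tsc22d3, another known target, was 2.15-fold and 2.53-fold higher in the same order (adjusted p = 2.92e-07 and 6.46e-08). When GW7647 was added to Dex, Tsc22d3 fell by 0.24 ± 0.05 on the log2 scale (adjusted p = 0.0214) and Fkbp5 was not called (adjusted p = 0.732). Kit, the receptor used in the sort, was present at 4270 normalized counts or more in all 6 libraries, and all 12 listed BFU-E and erythroid markers passed the filter. Kit was 2.99-fold higher with Dex plus GW7647 and 2.95-fold higher with Dex than in untreated cells (adjusted p = 5.99e-09 and 4.55e-09, edgeR). Of the 12, only Kit was called higher, and 10 were lower with both drugs and 9 with Dex. Over all tested genes, 24.7% were higher and 25.1% lower with both drugs, and 25.5% and 26.0% with Dex. The erythroid markers summed to between 992700 and 1023000 normalized counts in the 4 treated libraries, against 2142000 and 2252000 in untreated cells, and their part in the values below was not tested. The globin genes Hbb-bs and Hba-a1 made up most of these sums. Epor, the erythropoietin receptor gene, was not called against untreated cells with both drugs (adjusted p = 0.906, edgeR) or with Dex (adjusted p = 0.813). Normalized counts are read counts scaled to a common library size, so levels of different genes are compared only after division by exon length. In RNA from bulk cells, fewer cells of a type and less RNA per cell cannot be told apart.

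Of the 7 genes, 6 lie side by side on mouse chromosome 1 in the order Il1r2, Il1r1, Il1rl2, Il1rl1, Il18r1 and Il18rap, with 0 other protein-coding genes between them, and Il1rap lies on chromosome 16. Promoters are shown for Il1rl1, Il1rl2 and Il1r1, the members highest with Dex that signal with Il1rap, for Il18rap, which was highest in untreated cells, and for Il1rap, which lies apart. RefSeq lists 11 promoters for the 7 genes on build GRCm38.p6, which is later than the NCBIM37 build of the authors' counts. The 250 bases before the start are given for 7 of them, all read from 5′ to 3′, with matches on either strand to 3 short motifs, which are spelled out after the sequences, in capitals.
Il1rl1, start further upstream, chr1:40429320-40429569, plus strand: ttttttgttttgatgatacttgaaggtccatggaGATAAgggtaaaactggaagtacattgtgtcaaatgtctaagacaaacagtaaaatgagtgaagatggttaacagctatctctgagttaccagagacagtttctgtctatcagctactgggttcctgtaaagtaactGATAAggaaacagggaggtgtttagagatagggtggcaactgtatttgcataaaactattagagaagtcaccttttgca
Il1rl1, start further downstream, chr1:40439379-40439628, plus strand: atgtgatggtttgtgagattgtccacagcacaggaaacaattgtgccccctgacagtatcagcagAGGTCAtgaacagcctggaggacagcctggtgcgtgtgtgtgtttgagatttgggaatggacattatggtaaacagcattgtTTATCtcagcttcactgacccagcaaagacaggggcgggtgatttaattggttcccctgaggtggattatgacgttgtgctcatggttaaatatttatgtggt
Il1rl2, chr1:40324339-40324588, plus strand: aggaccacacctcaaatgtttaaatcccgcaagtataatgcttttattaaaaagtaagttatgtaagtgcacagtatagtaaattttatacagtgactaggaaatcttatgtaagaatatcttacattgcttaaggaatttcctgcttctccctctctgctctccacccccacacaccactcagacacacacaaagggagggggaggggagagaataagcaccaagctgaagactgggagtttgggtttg
Il1r1, start further upstream, chr1:40224830-40225079, plus strand: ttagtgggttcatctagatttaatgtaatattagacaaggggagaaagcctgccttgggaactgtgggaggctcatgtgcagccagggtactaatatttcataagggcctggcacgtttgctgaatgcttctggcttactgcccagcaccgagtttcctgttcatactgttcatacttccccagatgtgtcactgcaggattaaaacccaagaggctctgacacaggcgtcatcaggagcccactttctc
Il1r1, start further downstream, chr1:40266336-40266585, plus strand: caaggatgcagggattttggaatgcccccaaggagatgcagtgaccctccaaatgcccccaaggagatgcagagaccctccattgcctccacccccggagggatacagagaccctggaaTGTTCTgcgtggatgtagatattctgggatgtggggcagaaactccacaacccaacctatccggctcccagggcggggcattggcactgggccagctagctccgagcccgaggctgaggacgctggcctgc
Il18rap, chr1:40515112-40515361, plus strand: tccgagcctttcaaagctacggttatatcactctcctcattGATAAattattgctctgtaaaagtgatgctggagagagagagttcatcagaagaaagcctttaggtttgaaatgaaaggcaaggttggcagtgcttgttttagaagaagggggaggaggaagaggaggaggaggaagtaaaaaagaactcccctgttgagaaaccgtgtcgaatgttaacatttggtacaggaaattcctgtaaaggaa
Il1rap, chr16:26581455-26581704, plus strand: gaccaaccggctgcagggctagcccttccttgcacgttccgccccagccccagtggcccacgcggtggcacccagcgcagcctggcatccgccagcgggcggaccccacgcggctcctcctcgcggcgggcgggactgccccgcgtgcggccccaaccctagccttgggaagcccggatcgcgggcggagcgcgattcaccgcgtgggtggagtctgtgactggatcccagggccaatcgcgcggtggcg

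GATAA, the core that GATA factors bind, was present in 4 of the 11 promoters, from 3 of the members. The upstream Il1rl1 promoter held it 2 times, with first bases 216 and 79 bases before the start, and the downstream Il1rl1 promoter held its reverse complement 1 time. GATAA was present in 22.6% of the 32851 promoters in the RefSeq table. A loose form of the full palindromic glucocorticoid receptor site was found in 0 of the 11 and in 0.387% of all promoters. TGTTCT, a single arm of it, was found in the downstream Il1r1 promoter and in 16.1% of all promoters. AGGTCA, the core that PPARs and related nuclear receptors bind, was found in the downstream Il1rl1 promoter and in 14.0% of all promoters. The motifs did not overlap each other, and a match is a description of these 250 bases and not a bound site. In base composition, the Il1rap promoter stood apart with 74.4% G and C and 30 CpG, against 37.6% and 0 CpG in the upstream Il1rl1 promoter and 41.2% and 1 CpG in the Il1rl2 promoter. The median over all promoters was 52.4% and 6 CpG. The counts are per gene, so they do not show which start was used.

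Il1rl1, the chain that binds interleukin 33, was by far the most abundant member. It had 4592 and 4456 normalized counts with Dex plus GW7647, 6888 and 7371 with Dex, and 984.1 and 950.5 in untreated cells. The 3 groups did not overlap, and the libraries with both drugs lay between the other groups. With 2 libraries per group such separation is easily reached, and its share over all genes was not counted. Here and for the members below it is a description only. Il1rl1 fell 1.58-fold with Dex plus GW7647 against Dex (log2 -0.66 ± 0.05 SE, adjusted p = 4.23e-05, edgeR) and was 4.68-fold higher than in untreated cells (log2 2.23 ± 0.06, adjusted p = 4.67e-09). With Dex against untreated cells the log2 difference was 2.88 ± 0.06, which is part of the choice of the family. The gene makes a membrane receptor and a shorter soluble form that captures interleukin 33, and counts per gene do not separate these forms.

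Il1rl2, the chain that binds interleukin 36, was nearly silent without Dex. It had 192.3 and 197.2 normalized counts with Dex plus GW7647, 525.5 and 585.1 with Dex, and 15.89 and 4.625 in untreated cells, where these stand for 13 and 4 reads. Again the groups did not overlap, and the 2 untreated libraries differed from each other by more than those of any treated group did in proportion. Il1rl2 fell 2.85-fold with Dex plus GW7647 against Dex (log2 -1.51 ± 0.14, adjusted p = 0.000156, edgeR) and was 19.0-fold higher than in untreated cells (log2 4.25 ± 0.28, adjusted p = 1.17e-06). The log2 difference of Dex against untreated cells was 5.76 ± 0.24, the largest among the members. Since few untreated reads carry them, the differences against untreated cells ranged from 3.60 to 5.36 over the 12 alternative fits for both drugs and from 5.11 to 6.87 over 13 for Dex.

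Il1r1, the signalling receptor of interleukin 1, had 139.9 and 157.1 normalized counts with Dex plus GW7647, 486.1 and 469.7 with Dex, and 33.01 and 40.47 in untreated cells. Its groups did not overlap either, and it showed the largest fall of the family when GW7647 was added. Il1r1 fell 3.23-fold with Dex plus GW7647 against Dex (log2 -1.69 ± 0.11, adjusted p = 1.64e-05, edgeR) and was 4.01-fold higher than in untreated cells (log2 2.00 ± 0.16, adjusted p = 5.44e-06). With Dex against untreated cells its log2 difference was 3.69 ± 0.14, so the gene that binds interleukin 1 stood beside the 2 genes that put the family forward.

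Il1r2, the decoy receptor, followed the same order at a low level. It had 24.37 and 23.62 normalized counts with Dex plus GW7647, 50.92 and 51.57 with Dex, and 14.67 and 12.72 in untreated cells, with 191 reads in all 6 libraries. The groups did not overlap. Il1r2 fell 2.13-fold with Dex plus GW7647 against Dex (log2 -1.09 ± 0.22, adjusted p = 0.0113, edgeR), a call lost when either library with both drugs was left out (adjusted p = 0.105 without replicate 1, 0.0879 without replicate 2). In the authors' deposited table its adjusted p was 0.0937, and DESeq2 gave it none. Against untreated cells it was 1.75-fold higher with both drugs (log2 0.81 ± 0.29, adjusted p = 0.0462), and that call was lost whichever of the 6 libraries was left out (adjusted p from 0.0618 to 0.193) and under DESeq2 (adjusted p = 0.285). The Dex against untreated difference was 1.90 ± 0.25 on the log2 scale. A gene on the opposite strand overlaps Il1r2 in the GENCODE annotation, and strand use in counting is not stated, so these counts are uncertain.

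**Figure D1:**
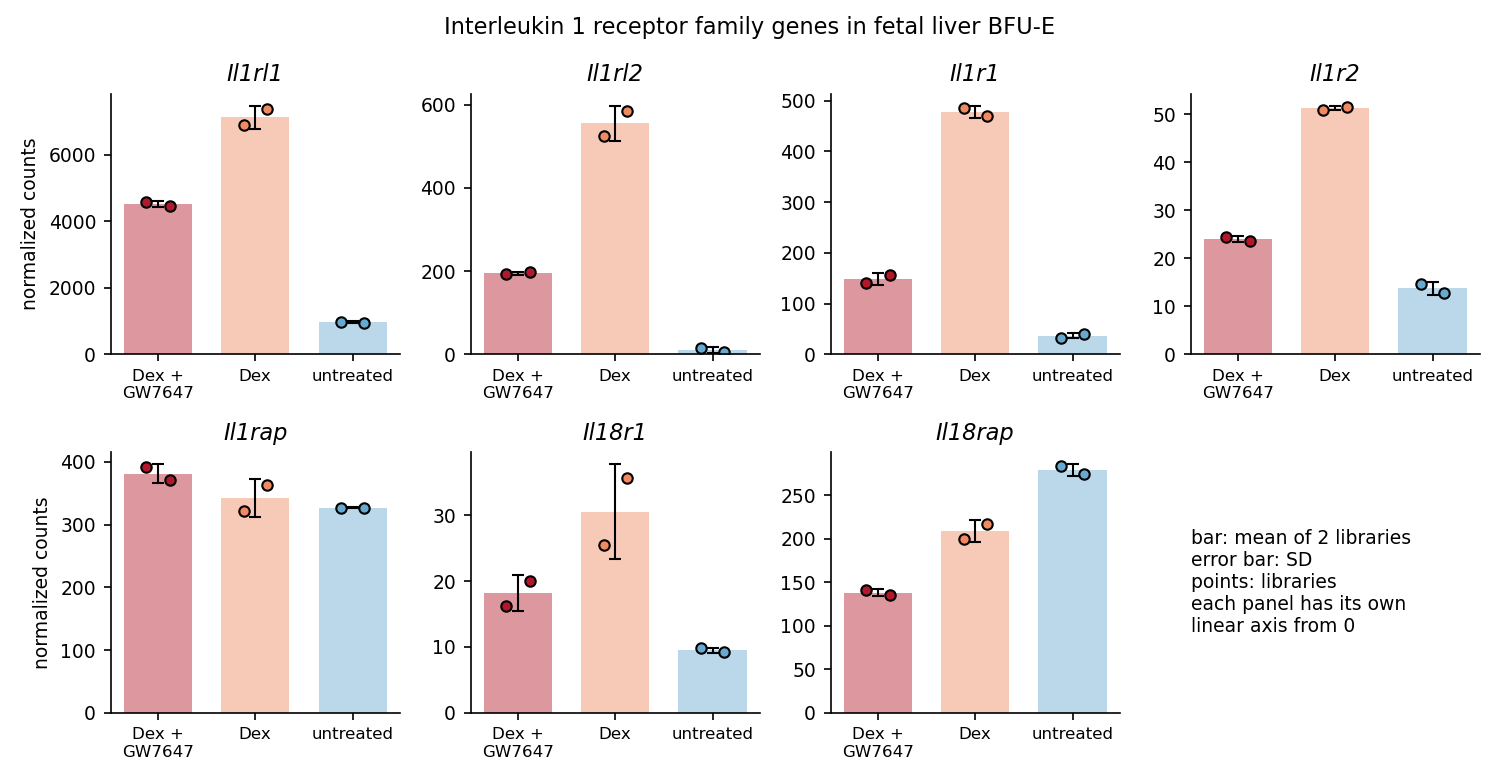
Normalized counts (linear axes from 0, one scale per panel) of the 7 members in cells with Dex plus GW7647, with Dex, and untreated; points are libraries, bars are means and error bars are SD over 2 libraries. Il1rl1, Il1rl2, Il1r1, Il1r2 and Il18r1 are highest with Dex, Il18rap is lowest with Dex plus GW7647, and Il1rap lies between 321.0 and 391.7 in all libraries.

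Il1rap, the accessory chain that interleukin 1, 33 and 36 receptors share, stayed within a narrow range. It had 391.7 and 370.8 normalized counts with Dex plus GW7647, 321.0 and 363.8 with Dex, and 326.4 and 327.2 in untreated cells. Libraries with Dex overlapped the untreated ones, and those with both drugs lay slightly above the rest. With Dex plus GW7647 against Dex the log2 difference was 0.16 ± 0.09 (95% interval -0.05 to 0.37, adjusted p = 0.341, edgeR), and against untreated cells it was 0.22 ± 0.10 (adjusted p = 0.0835). The difference against untreated cells passed when libraries were scaled by total counts (log2 0.34, adjusted p = 0.0122), a scaling that moves the median of all genes by 0.12 there. Dex against untreated cells gave 0.06 ± 0.10. An antisense gene overlaps Il1rap as well.

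Because the binding chains moved and the accessory chain did not to a measurable degree, their ratio per kilobase of exon differed between groups. Il1rl1 stood at 19.3 and 19.8 times Il1rap with Dex plus GW7647, 35.4 and 33.4 times with Dex, and 4.97 and 4.79 times in untreated cells. Il1rl2 stood at 0.818 and 0.887 times Il1rap with Dex plus GW7647, 2.73 and 2.68 times with Dex, and 0.0812 and 0.0236 times in untreated cells. Il1r1 stood at 0.638 and 0.756 times Il1rap with Dex plus GW7647, 2.70 and 2.31 times with Dex, and 0.181 and 0.221 times in untreated cells. In each case the groups did not overlap, and the Il1rl2 and Il1r1 transcripts exceeded those of the accessory chain in the Dex libraries and lay below them in the others. These are ratios of transcripts and not of proteins on the cell surface.

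The chains of the interleukin 18 receptor went separate ways. Il18r1, the binding chain, was scarce, with 16.25 and 20.08 normalized counts with Dex plus GW7647, 25.46 and 35.63 with Dex, and 9.78 and 9.251 in untreated cells. Its groups did not overlap, yet with 122 reads in all 6 libraries it was called in neither comparison. The log2 difference with Dex plus GW7647 against Dex was -0.75 ± 0.29 (95% interval -1.40 to -0.09, adjusted p = 0.152, edgeR), and against untreated cells it was 0.91 ± 0.40 (adjusted p = 0.083). The difference against untreated cells passed under total count scaling (adjusted p = 0.0461) and with limma-trend (adjusted p = 0.047). Dex against untreated cells gave 1.65 ± 0.35.

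Il18rap, the accessory chain, was highest in untreated cells. It had 140.8 and 135.8 normalized counts with Dex plus GW7647, 199.8 and 217.5 with Dex, and 283.6 and 274.0 in untreated cells, and the groups did not overlap. Il18rap fell 1.5-fold with Dex plus GW7647 against Dex (log2 -0.59 ± 0.12, adjusted p = 0.0109, edgeR), and this call, too, needed both libraries with both drugs (adjusted p = 0.0784 when replicate 1 was dropped and 0.0851 when replicate 2 was). It was 2.01-fold lower with Dex plus GW7647 than in untreated cells (log2 -1.01 ± 0.12, adjusted p = 5.97e-05). With Dex against untreated cells the log2 difference was -0.42 ± 0.11, opposite in sign to that of the other 5 members on chromosome 1. Per kilobase, Il18rap stood at 6.18 and 4.83 times Il18r1 with Dex plus GW7647, 5.60 and 4.36 times with Dex, and 20.7 and 21.1 times in untreated cells. These ratios rest on few Il18r1 reads, 18 and 17 with both drugs, 33 and 38 with Dex, and 8 and 8 in untreated cells.

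**Figure D2:**
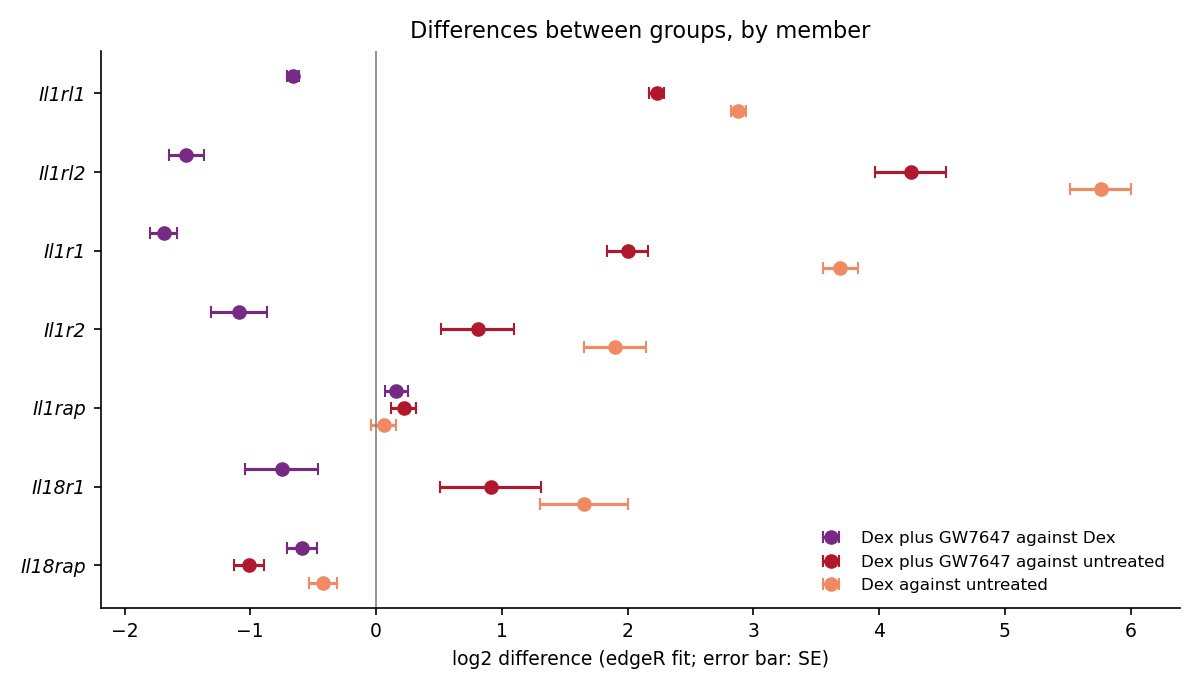
Log2 differences of the 7 members (horizontal axis, edgeR fit, error bars SE) in the 3 comparisons. Il1rl1, Il1rl2, Il1r1 and Il1r2 lie left of 0 for Dex plus GW7647 against Dex and right of it against untreated cells, Il1rap lies near 0, and Il18rap lies left of 0 throughout; values of Dex against untreated are a description without a test.

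By length-corrected level, Il1rl1 led in every group, with a mean of 656.3 ± 14.0 normalized counts per kilobase of exon with Dex plus GW7647, 1034 ± 49.6 with Dex and 140.3 ± 3.45 in untreated cells (SD, n = 2 each). In cells with both drugs the order below it was Il1rap (33.56 ± 1.30), Il1rl2 (28.59 ± 0.517), Il1r1 (23.34 ± 1.91), Il18rap (20.48 ± 0.522), Il1r2 (12.58 ± 0.278) and Il18r1 (3.77 ± 0.562). No neighbours in that order overlapped between libraries. With Dex it was Il1rl2 (81.51 ± 6.19), Il1r1 (75.11 ± 1.82), Il18rap (30.91 ± 1.85), Il1rap (30.14 ± 2.66), Il1r2 (26.86 ± 0.239) and Il18r1 (6.341 ± 1.49), and here Il18rap and Il1rap overlapped. In untreated cells it was Il18rap (41.30 ± 1.0), Il1rap (28.77 ± 0.051), Il1r2 (7.178 ± 0.723), Il1r1 (5.774 ± 0.829), Il18r1 (1.975 ± 0.0778) and Il1rl2 (1.506 ± 1.17), and the last pair overlapped. Il1rl2 was thus lowest of the 7 in untreated cells and stood next to Il1rl1 with Dex. Of all reads on the family after normalization, Il1rl1 took 83.5% and 83.1% with Dex plus GW7647, 81.1% and 81.1% with Dex, and 59.0% and 58.7% in untreated cells. These are shares of reads, not corrected for exon length, and not shares of transcripts. The lengths are exon unions from GENCODE M21 and may differ from those of the authors' annotation.

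**Figure D3:**
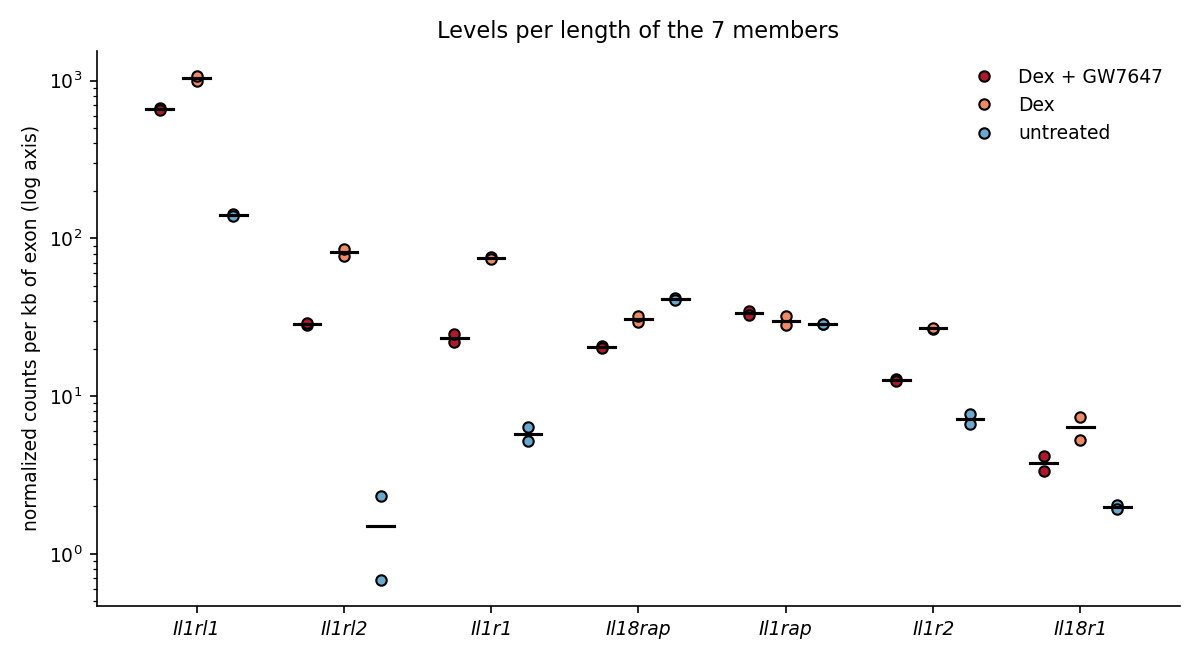
Normalized counts per kilobase of exon (log axis) of the 7 members, ordered by their mean with Dex; points are libraries and horizontal bars are means of 2 libraries in each group. Il1rl1 is highest in all groups, and Il1rl2 is at 0.679 and 2.333 in untreated cells against 77.14 and 85.89 with Dex.

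Along chromosome 1, the Dex against untreated log2 differences were 1.90 for Il1r2, 3.69 for Il1r1, 5.76 for Il1rl2, 2.88 for Il1rl1, 1.65 for Il18r1 and -0.42 for Il18rap. The largest value lies inside the run, and values become smaller on both sides. The family was chosen by this difference in Il1rl2 and its neighbour Il1rl1, so the shape partly follows from the choice and is a description only. The Il1rl2 value rests on 13 and 4 untreated reads and ranged from 5.11 to 6.87 over 13 alternative fits. Of the 3 nearest genes with reads on either side of the run, Creg2, Rfx8, Slc9a2 and Tmem182 had between 1 and 3 reads in all libraries and were not tested. Map4k4, a kinase gene next to Il1r2, had a log2 difference of -0.03 ± 0.05 with Dex plus GW7647 against Dex (adjusted p = 0.758, edgeR) and rose by 0.54 ± 0.05 against untreated cells (adjusted p = 2.42e-05). It rose by 0.57 ± 0.05 with Dex against untreated cells (adjusted p = 1.35e-05, edgeR). Mfsd9, which encodes a membrane transporter-like protein beyond Il18rap, had 0.04 ± 0.18 with both drugs against Dex (adjusted p = 0.934), rose by 0.73 ± 0.20 with both drugs against untreated cells (adjusted p = 0.0134) and rose by 0.70 ± 0.20 with Dex against untreated cells (adjusted p = 0.0149). Neither neighbour was called when GW7647 was added to Dex, a comparison where 9.73% of all tested genes were called and 7.58% were lower. Most genes were thus not called there, and the neighbours do not mark a border. Of the 6 members between them, 5 were called lower and Il18r1 was not called. The Il1r2 and Il18rap calls needed both libraries with both drugs.

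**Figure D4:**
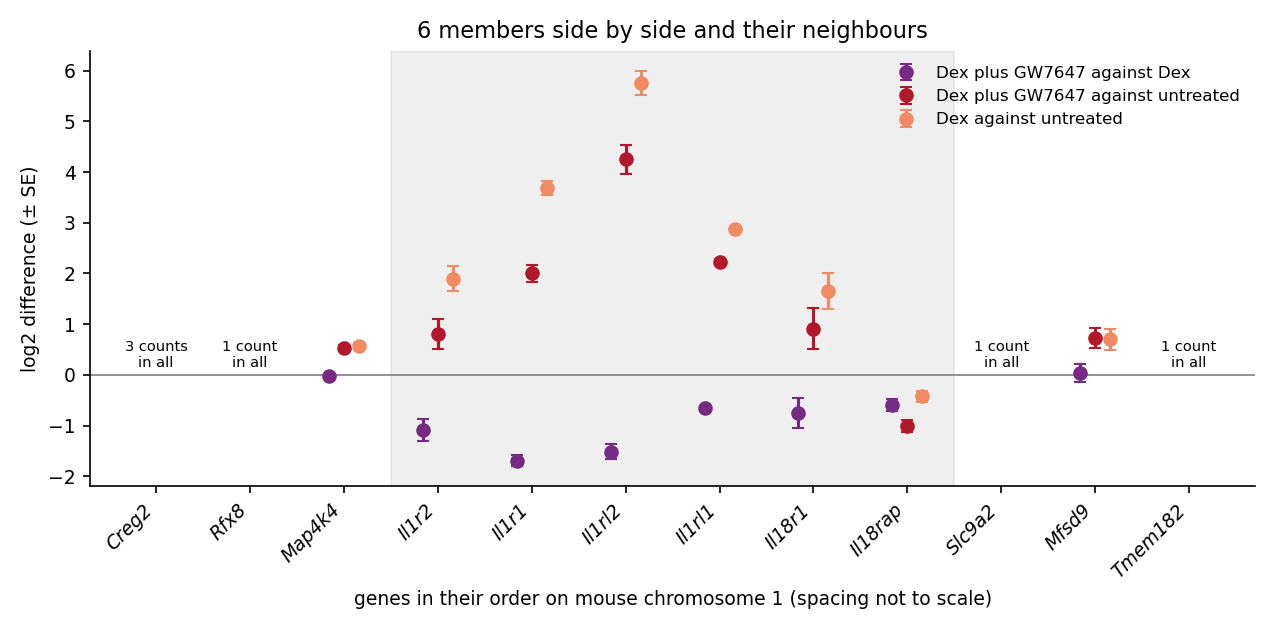
Log2 differences (± SE) of the 6 members on chromosome 1 (grey band) and the 3 nearest genes with reads on either side, in chromosomal order with spacing not to scale, for the 3 comparisons. Members lie below 0 for Dex plus GW7647 against Dex, while Map4k4 (-0.03) and Mfsd9 (0.04) lie at 0.

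Few ligands of the family were transcribed in these cells. Il33 had 0 reads in all 4 treated libraries and 1 and 0 in untreated ones, and Il18 had 0 in the treated libraries and 3 and 2 in untreated ones. A count of 0 allows up to 3 reads in a library. The interleukin 36 genes Il1f6 and Il1f8 had 0 reads in all libraries, and Il1f9 had 2 to 9. Il1a and Il1b, which encode interleukin 1α and 1β, were the 2 ligands that could be tested, at 16 to 24 and 18 to 33 reads, and neither was called in the 3 comparisons (adjusted p between 0.403 and 0.993, edgeR). Of the antagonists, Il1rn, the receptor antagonist, had 0 to 4 reads, and Il18bp, which captures interleukin 18, had 67 to 123 reads and was not called (adjusted p between 0.509 and 0.929). Of the remaining receptors, Il1rapl1 and Il1rapl2 had 0 reads, and Sigirr, an inhibitory member, fell by 0.66 ± 0.16 with Dex plus GW7647 against untreated cells (adjusted p = 0.0057) and had -0.35 ± 0.15 against Dex (adjusted p = 0.199).

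The adaptors and kinases downstream of the receptors were all measured, 20 of 20, and most were not called when GW7647 was added to Dex. When GW7647 was added to Dex, 1 of 20 was higher, 3 lower and 16 not called, with a median log2 difference of -0.02 against 0.00 over all tested genes. Of all tested genes, 9.73% were called in that comparison, 2.15% higher and 7.58% lower. Myd88, the adaptor of the family, fell by 0.22 ± 0.05 (adjusted p = 0.0211, edgeR), the kinase gene Irak4 by 0.24 ± 0.06 (adjusted p = 0.0246) and Irak3, an inhibitory member of the same kinase family, by 0.64 ± 0.16 (adjusted p = 0.0318), while the kinase gene Irak2 rose by 0.36 ± 0.08 (adjusted p = 0.0155). Counts ran from 0 to 1 higher and from 0 to 3 lower over the fits that left out a library, and were 1 and 1 under DESeq2. With Dex plus GW7647 against untreated cells, 6 were higher and 7 lower, or 8 and 4 under total count scaling. Over all tested genes, 24.7% were called higher and 25.1% lower there. With Dex against untreated cells, where 51.6% of all tested genes were called, 6 were higher and 5 lower, or 9 and 4 under total count scaling, against 25.5% higher and 26.0% lower over all tested genes. Myd88 had 3316 and 3452 normalized counts with Dex plus GW7647, 3955 and 3922 with Dex, and 2694 and 2531 in untreated cells, the same order of groups as Il1rl1.

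Genes of NF-κB and its feedback, which these receptors drive in other cells, were lower for 6 of 14 tested and higher for 0 with Dex plus GW7647 against Dex, with a median log2 difference of -0.42 against 0.00 over all tested genes, of which 7.58% were called lower. Lower calls were 4 under DESeq2 and ran from 3 to 8 over the fits that left out a library. Tnfaip3, an enzyme that ends NF-κB signalling, had 435.0 and 457.1 normalized counts with Dex plus GW7647, 809.4 and 814.8 with Dex, and 125.9 and 178.1 in untreated cells. It fell by 0.87 ± 0.11 with Dex plus GW7647 against Dex (adjusted p = 0.000742, edgeR) and was 5.32-fold higher with Dex than in untreated cells (adjusted p = 2.11e-07). Relb, a subunit of NF-κB, fell by 0.66 ± 0.09 (adjusted p = 0.00178), and Dusp1, a phosphatase of MAP kinases, by 0.59 ± 0.08 (adjusted p = 0.00118). Against untreated cells, 5 were higher and 4 lower with Dex plus GW7647, or 7 and 3 under total count scaling and 2 and 4 under DESeq2, where 49.7% of all tested genes were called. With Dex against untreated cells, 6 were higher and 2 lower, or 9 and 2 under total count scaling, a share near the 51.6% called over all tested genes.

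Other blood cells that carry these receptors could contribute reads, so their markers are given beside the family. Markers of mast cells and basophils summed to 11230 and 10830 normalized counts with Dex plus GW7647, 16790 and 16140 with Dex, and 11460 and 11770 in untreated cells, and their part in the values of Il1rl1 was not tested. When GW7647 was added to Dex, 8 of the 9 tested markers fell and 0 rose, where 7.58% of all tested genes were called lower and 2.15% higher. Under DESeq2, 6 markers of the list fell and 0 rose. Hdc, which encodes the enzyme that makes histamine, had 5075 and 4984 normalized counts with Dex plus GW7647, 8879 and 8487 with Dex, and 1749 and 1748 in untreated cells. Gata2, a transcription factor gene, had 5471 and 5172 with Dex plus GW7647, 6646 and 6346 with Dex, and 5235 and 5536 in untreated cells. Hdc and Gata2 made up most of the summed marker counts in every library. Among the tested proteases of these cells, only the tryptase gene Tpsb2 was higher with Dex than in untreated cells (1.51-fold, adjusted p = 0.0128, edgeR). Cpa3 was 4.21-fold lower (adjusted p = 8.08e-09), Cma1 4.03-fold (adjusted p = 4.87e-08), Mcpt8 6.65-fold (adjusted p = 1.84e-07) and Prss34 1.65-fold (adjusted p = 0.0156). Mcpt4 was lower too (adjusted p = 0.000504), at 0 and 1 reads with Dex and 14 and 20 in untreated cells. Tpsb2 fell 5.29-fold when GW7647 was added to Dex (adjusted p = 5.5e-05). Fcer1a, the α chain of the IgE receptor, had 0 reads with Dex plus GW7647, 1 and 0 with Dex, and 2 and 6 in untreated cells. Of the 9, 3 rose and 6 fell with Dex against untreated cells, and with both drugs against untreated cells 1 rose and 7 fell. Under DESeq2, 2 rose and 5 fell with Dex, and 1 rose and 7 fell with both drugs. Over all tested genes, 51.6% and 49.7% were called in these comparisons, so a call is common there.

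Summed markers of eosinophils, monocytes and neutrophils were lower in the treated groups, though single genes went otherwise. Eosinophil markers summed to 91.16 and 102.8 normalized counts with Dex plus GW7647, 202.9 and 192.2 with Dex, and 540.4 and 550.4 in untreated cells. Among them Il5ra, a chain of the interleukin 5 receptor, was 2.89-fold higher with Dex than in untreated cells (adjusted p = 0.000332, edgeR) and 3.09-fold lower when GW7647 was added (adjusted p = 0.00143). Monocyte and macrophage markers summed to 547.9 and 539.7 with Dex plus GW7647, 801.7 and 829.8 with Dex, and 1952 and 1947 in untreated cells, with C1qa at 0 in all libraries. Cd68, a macrophage marker of that list, was 1.34-fold higher with Dex plus GW7647 (adjusted p = 0.0353) and 1.41-fold higher with Dex (adjusted p = 0.0145) than in untreated cells. Under DESeq2, 0 markers of that list were called higher in either comparison. Neutrophil markers summed to 3505 and 3560 with Dex plus GW7647, 5762 and 5557 with Dex, and 11620 and 12270 in untreated cells. Megakaryocyte markers summed to 11850 and 11590 with Dex plus GW7647, 18560 and 16600 with Dex, and 33920 and 36170 in untreated cells. Endothelial and stromal markers summed to 897.2 and 875.1, to 1144 and 1177, and to 1035 and 1168 in the same order. The part of these markers in the family's values was not tested. Lymphoid markers, type 2 innate cells included, summed to between 40.62 and 84.41 in all libraries, and Gata3, which defines the type 2 cells that carry ST2, had 0 to 5 reads. Of the 3 lymphoid markers tested, 0 were called with Dex against untreated cells or with Dex plus GW7647 against Dex. Over all tested genes, 51.6% and 9.73% were called in these comparisons. With Dex plus GW7647 against untreated cells, where 49.7% of all tested genes were called, 1 of the 3 was lower. This was Il7r (log2 -1.49 ± 0.38, adjusted p = 0.00867, edgeR), at 7 and 11 reads against 22 and 22. Under DESeq2 it was not called. Hepatoblast markers, from the liver cells around the progenitors, summed to 150.7 and 147.6 with Dex plus GW7647, 259.3 and 238.2 with Dex, and 91.69 and 86.72 in untreated cells, the same order of groups as Il1rl1. Most of the treated sums was Apoa1, an apolipoprotein gene, which was higher than in untreated cells by 3.86 ± 0.28 on the log2 scale with Dex plus GW7647 (adjusted p = 2.33e-06) and by 4.42 ± 0.26 with Dex (adjusted p = 5.04e-07), while Alb, which encodes albumin, had 1 to 5 reads. Afp followed the same order of groups. It had 15.34 and 12.99 normalized counts with Dex plus GW7647, 29.32 and 38.44 with Dex, and 11.0 and 9.251 in untreated cells. Afp was 3.3-fold higher with Dex than in untreated cells (adjusted p = 0.00152, edgeR). It fell 2.34-fold when GW7647 was added to Dex (adjusted p = 0.027), a call not made under DESeq2. Dlk1, which made up most of the untreated sums, did not follow that order. It had 30.69 and 18.9 normalized counts with Dex plus GW7647, 67.9 and 42.19 with Dex, and 68.46 and 69.38 in untreated cells. Against untreated cells it was lower by 1.43 ± 0.30 with both drugs (adjusted p = 0.00303, edgeR) and not called with Dex (adjusted p = 0.355). The part of hepatoblast markers in the family's values was not tested.

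Genes whose pattern was nearest to that of Il1rl1 and Il1rl2 were found by the distance between pairs of log2 differences, Dex against untreated and Dex plus GW7647 against Dex, over 3 groups of 2 libraries. The 5 nearest to Il1rl1 were Nfatc4, Vsig10, Dnm1, Cd80 and Ankrd36, at distances of 0.11 to 0.25 on the log2 scale. Cd80, a costimulatory molecule of antigen-presenting cells, had a mean of 850.4 normalized counts with Dex plus GW7647, 1436 with Dex and 218.6 in untreated cells. Nearest to Il1rl2 were Tnr at 0.21, Ndufa4l2 at 0.91, Mst1r at 1.22, Gm13053 at 1.27 and Mmp2 at 1.36, so Tnr alone lay close. Tnr, which encodes the matrix protein tenascin R, had a mean of 76.05 with Dex plus GW7647, 248.6 with Dex and 4.146 in untreated cells.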

How the data were processed

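Per the labels, TRIzol RNA went into TruSeq libraries of polyA RNA. Per the submitters' processing notes, TopHat 1.4.1, HTSeq and DESeq were used with builds mm9 and NCBIM37; strand use is not given in the sources used here. The authors deposited whole-number read counts per Ensembl gene and library, and an adjusted p_value per gene from their comparisons, in 2 tables that hold identical counts for the libraries with both drugs. Symbols were joined from GENCODE M21 for 32897 genes (87.45%).

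Counts of all 6 libraries were fitted with edgeR 4.0.16 in R 4.3.3 after filterByExpr (minimum count 10), with TMM scaling, the quasi-likelihood test, Benjamini-Hochberg adjustment over 14125 genes and a threshold of 0.05. The tested genes hold 99.971% of the counts, and library totals ran from 35970286 to 54174801. To give normalized counts, each count was scaled by the effective (TMM) size of its library relative to the average library. SE is the log2 difference divided by the square root of F. Alternatives were DESeq2 1.42.0, limma-trend (limma 3.58.1), total count scaling, genes of any count, the 4 libraries compared, a replicate block, the authors' deposited p-values and leaving out each library. Promoters are from RefSeq on GRCm38.p6, and motif searches were added after the values were known. The members, lists and naming rules were chosen with earlier results of these data known. Named beyond the members were up to 4 genes of a list with the smallest p in a comparison and any gene a count of 5 or fewer refers to, the 5 genes, among those averaging 50 normalized counts or more, nearest in pattern to Il1rl1 and to Il1rl2, up to 3 neighbours on either side, and Fkbp5, Tsc22d3 and Kit. Fcer1a, C1qa and Gata3 were named as defining markers. Mcpt4, Prss34 and Hba-a1 were named because sentences on proteases or on summed counts refer to them.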

Additional observations from a re-analysis of the deposited data

How the results depend on the processing

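With Dex plus GW7647 against Dex, 1374 genes were called, 2085 when genes of any count were tested, and 548 to 1729 when a library was left out (548 without replicate 1 and 618 without replicate 2 of Dex plus GW7647). Members called ran from 3 to 5 over the same fits, with 3 lacking Il1r2 and Il18rap without either of those libraries, and were 4 under DESeq2 and in the authors' deposited p-values. A fit that leaves a group with 1 library assumes that it varies like the others. Total count scaling gave 5480 higher and 2719 lower calls for Dex plus GW7647 against untreated, where TMM gave 3486 and 3539, and called 6 members higher. For Dex against untreated it gave 5451 and 2584, where TMM gave 3606 and 3677. The Il1r2 call of Dex plus GW7647 against untreated was lost in 10 refits (adjusted p from 0.055 to 0.285) and was not made in the authors' deposited table (adjusted p = 0.359). The Dex against untreated difference of Il1rap turned to -0.04 without replicate 2 of Dex and was 0.16 without replicate 1; the cause was not tested. Correlations of same-numbered deviations were -0.561 for Dex with untreated, -0.099 for Dex plus GW7647 with untreated and 0.308 for Dex plus GW7647 with Dex. Replicate numbers thus gave no single pairing across the 3 groups, and the main fit used none. What libraries of different groups shared was not tested. A replicate block gave 998 calls for Dex plus GW7647 against Dex, 6523 for Dex plus GW7647 against untreated and 6824 for Dex against untreated, and ended the Il1r2 call against untreated (adjusted p = 0.0619). A crossed block for Dex against untreated, chosen after seeing the data, gave 8493 calls on the 4 libraries compared, where the fit of those libraries without a block gave 6701. Reads limit Il18r1, Il1r2 and, in untreated cells, Il1rl2.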
